A study of Mus musculus with 6 samples.

Results

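Cytochrome P450 enzymes of families 1 to 3 were followed in mouse liver on a ketogenic diet, by the transcripts of 39 genes among 18193 genes with a probe set on the array. Members were the genes whose single annotated symbol places them in family 1, 2 or 3, without the Cyp2b genes. For a gene with several probe sets, the one of highest mean signal over all 6 arrays stood for it. C57BL/6 mice, 8 weeks old at the start, received chow (Labdiet 5008) or a ketogenic diet (F3666) for 6 weeks. Livers were taken in the morning from freely fed animals, and total RNA was hybridized to 3 Affymetrix arrays per diet. The design text gives 2-3 animals per group, and whether an array held 1 animal or a pool is a detail not given in the sources used here. Hence p-values reflect the scatter among these arrays alone, some of which may be technical. The sex of the mice is not given in the labels. The transcript of Eif2s3y, a gene on the Y chromosome, lay between 60.5 and 133.8 on all 6 arrays, above a background of 10.8, a level set from the control probe sets for Bacillus transcripts, on the assumption that none were added.

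P450 enzymes are heme proteins of the endoplasmic reticulum that oxidise their substrates with electrons passed on by a reductase. Family 1 genes are controlled by the aryl hydrocarbon receptor AhR, and many Cyp2c and Cyp3a genes by the xenobiotic receptors CAR (Nr1i3) and PXR (Nr1i2). In the liver these families oxidise drugs and foreign chemicals, and also steroids, bile acids and fatty acids. Many of the genes are expressed mainly in hepatocytes around the central vein, and several are sex-biased in the mouse under the control of pulsatile growth hormone.

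On the ketogenic diet, transcripts of 5 members fell and 0 rose: Cyp2c29, Cyp2c55, Cyp2c70, Cyp2d9 and Cyp3a25. Their levels were 2.04-fold to 4.17-fold lower than on chow (limma's test, adjusted p at or under 0.05 over all genes). Of the 39 members, 31 were bright enough to be tested, so 16.1% of the tested members fell, against 0.86% of all 11860 genes tested. Rises were called for 6.57% of all genes. At an unadjusted p under 0.05, 12 members were lower and 1 was higher, Cyp2c38. The median log2 change was -0.508 over the tested members and 0.237 over all genes tested, and 23 of 31 members had a negative change, against 30.1% of all genes. Arrays of the diets did not overlap for 16 members that were lower on the ketogenic diet (51.6%, against 5.17% of all genes) and for 2 that were higher (6.45%, against 24.1%).

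The number of falls depended on single arrays, array scaling, the treatment of dim signals and the variance prior. Without a filter on dim probe sets 0 members fell, on log2(signal + 16) 12 fell, and with a trended robust prior 11 fell. Between 2 and 5 members fell when 1 array was left out: 2 without chow array 1, chow array 3, ketogenic array 2 or ketogenic array 3, and 3 without chow array 2. Cyp2c29 and Cyp2c70 were past the threshold under 19 of 20 alternatives each, all except the one without a filter on dim probe sets (adjusted p = 0.0729 and 0.054). Over 4 other scalings 5 to 11 members fell. Scaled to the hybridization controls, RNA added in known amount, 3 members also rose (Cyp1b1, Cyp2c38 and Cyp2c68), and all genes shifted up, with a median of 0.599. With a common array median, quantile normalization and a common trimmed mean the median of all genes was 0.125, -0.0047 and 0.0292. In simulated data with 200 of 11860 genes changed per draw, 4.1% of 2-fold and 74.4% of 4-fold changes were called. In the data 779 genes were called higher and 102 lower, so the adjusted threshold was less strict than in the simulation. The simulated shares therefore do not give the power of the test here.

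**Figure D1:**
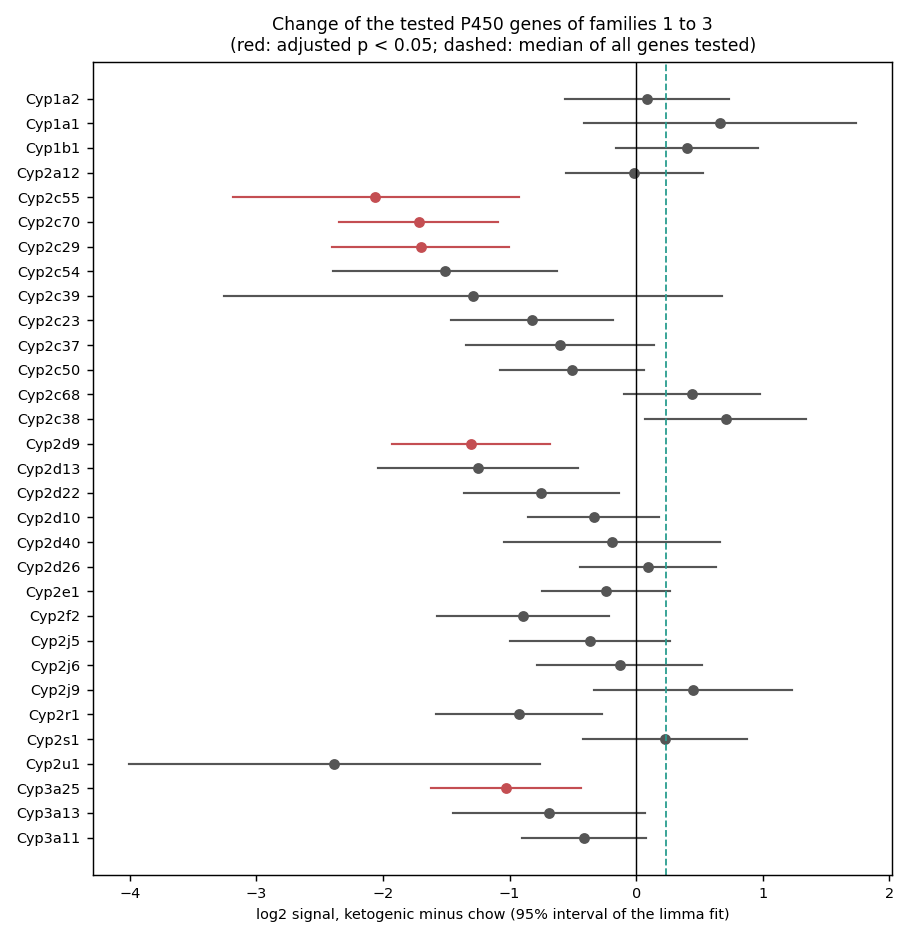
Log2 change (ketogenic minus chow, horizontal axis) of the 31 tested P450 genes, ordered by subfamily, with the 95% interval of the limma fit. The 5 genes in red passed adjusted p 0.05 and all lie left of 0, while the dashed line marks the median of all genes tested at 0.237.

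The array level did not separate the diets, since the trimmed mean signal was 39.8 to 53.1 on chow and 45.3 to 60.5 on ketogenic arrays (exact permutation p = 0.3). Ketogenic array 3 had the lowest level of its diet, and 22 of the 31 tested members had their lowest signal there. The hybridization controls were lower on ketogenic arrays (478.3 to 511.2) than on chow arrays (633.2 to 650.3), and the 3' to 5' signal ratio of actin, which reflects RNA integrity, was 1.49 to 1.64 against 2.00 to 2.20 (exact permutation p = 0.1 for both, the smallest possible with 3 against 3). The same ratio of Gapdh overlapped between diets (exact permutation p = 0.9). Transcripts of other cell types moved with diet. Of 14 macrophage markers 12 rose, with a summed signal of 1419 to 1732 on chow and 4740 to 7280 on ketogenic arrays, and of 11 tested stellate cell markers 9 rose (1586 to 2036 and 4084 to 5532). Of the stellate cell markers 4 rose without chow array 2 or ketogenic array 3, and 5 without chow array 3 or ketogenic array 1. Marco among the macrophage markers and Col1a1 among the stellate cell markers passed the filter only through their ketogenic arrays. A rise was called for 1 of 10 endothelial markers (0 without any 1 array except chow array 1, and 4 without that one). All 10 had a positive change, with a median of 0.667 against 0.237 over all genes, and 6 had an unadjusted p under 0.05 in limma. Of 3 cholangiocyte markers 0 rose (0 also at an unadjusted p under 0.05). Of 5 lymphocyte and neutrophil markers 2 rose, the neutrophil genes S100a8 and S100a9. Both were under the background on every chow array and passed the filter only through their ketogenic arrays. The 1 tested erythroid marker, Alas2, fell by 1.009, a call lost without any 1 array. Of 13 hepatocyte markers 2 fell, Tat and Cps1, and their summed signal was 73120 to 76040 on chow and 56340 to 64280 on ketogenic arrays. Of these 13 markers 11 had a negative change, with a median of -0.176 against 0.237 over all genes. Arrays of the diets did not overlap for 8 that were lower and 1 that was higher, against 5.17% and 24.1% of all genes tested. Albumin itself had a log2 change of -0.01. In liver RNA, fewer hepatocytes and less of a transcript per hepatocyte cannot be told apart. With arrays scaled to the hepatocyte markers, an alternative chosen after the data were seen, 6 members fell, among them all 5 named above, and 3 rose. The 13 markers that set this scaling include Tat and Cps1, with log2 changes of -2.03 and -1.82. Scaling without these 2 genes was not tested. The part of the non-hepatocyte transcripts, the hybridization controls and RNA integrity in these results was not tested.

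Cyp2c enzymes include epoxygenases of arachidonic acid and oxidise retinoids, steroids and bile acids. Of 11 members of this subfamily 10 were tested, and 3 of these fell. Cyp2c29 is an abundant liver enzyme whose gene responds to CAR. Its signal was 3946.9, 3319.2 and 3582.8 on chow arrays 1 to 3 and 1033.1, 1681.2 and 782.5 on ketogenic arrays 1 to 3. The groups did not overlap, and even the brightest ketogenic array lay far below the dimmest chow array. The log2 change was -1.70 ± 0.31 (SE), or 3.26-fold lower, with adjusted p = 0.0129 in limma.

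Cyp2c70 hydroxylates bile acids and makes the muricholic acids of rodents. Its signal was 1940.0, 1274.5 and 2327.3 on chow and 532.7, 593.2 and 511.5 on ketogenic arrays, so that the ketogenic arrays lay close together and the chow arrays spread widely above them. The change was -1.72 ± 0.28 (log2, SE), with adjusted p = 0.00857 in limma. Over the 4 other scalings the change lay between -1.925 and -1.356. Cyp2c55, which is found mainly in the gut and is inducible in liver, had signals of 136.0, 33.3 and 105.3 on chow and 13.5, 24.5 and 19.9 on ketogenic arrays. The ranges did not overlap, although chow array 2 lay near the ketogenic arrays, all of which were close to the background. The change of Cyp2c55 was -2.06 ± 0.50 (log2, SE; adjusted p = 0.0402 in limma). It was past the threshold under 10 of 20 alternatives, and not without any 1 array except chow array 2 (adjusted p between 0.0596 and 0.126), with quantile normalization (0.0513) or with a common trimmed mean (0.053).

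Just outside the threshold was Cyp2c54, an epoxygenase, with 1987.7, 1979.9 and 1603.9 on chow and 987.7, 819.5 and 337.6 on ketogenic arrays. All 3 ketogenic arrays lay below all 3 chow arrays, and the log2 change was -1.51 ± 0.39 (SE), with adjusted p = 0.0514 in limma. It passed under 11 of 20 alternatives, among them each of the 4 other scalings (0.0295 to 0.0474). Its neighbour Cyp2c50 had 4273.9, 4029.1 and 3458.6 on chow and 3279.7, 2882.8 and 2189.9 on ketogenic arrays. These ranges did not overlap either, with a log2 change of -0.51 ± 0.25 (SE) and adjusted p = 0.264. Cyp2c23 and Cyp2c37 had log2 changes of -0.82 and -0.60, and the dim Cyp2c39 one of -1.29 with an SE of 0.87, none past the threshold.

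Cyp2c38 and Cyp2c68, described here after their values were seen, went the other way. Cyp2c38 had 330.2, 333.6 and 257.6 on chow and 470.7, 685.0 and 381.8 on ketogenic arrays, with a log2 change of 0.71 ± 0.28 (SE) and adjusted p = 0.174. Cyp2c68 had 1105.6, 1128.6 and 903.0 on chow and 1636.0, 1383.5 and 1245.4 on ketogenic arrays, with a change of 0.44 ± 0.24 and adjusted p = 0.304. These were the 2 tested members whose ketogenic arrays all lay above the chow arrays. Both passed the threshold as rises when arrays were scaled to the hybridization controls or to hepatocyte markers, and Cyp2c38 also on log2(signal + 16).

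Cyp2c29 and Cyp2c38 lie near each other in the Cyp2c group of chromosome 19, and their start regions resemble each other, at 68.8% identity over the 250 bases before the start in RefSeq's promoter window, against a median of 49.8% over 465 pairs of members. Since both genes are measured on the same array, the difference between their log2 signals is unchanged when the whole array is multiplied by a factor, though not under quantile normalization. This difference was 3.58, 3.31 and 3.80 on chow and 1.13, 1.30 and 1.04 on ketogenic arrays, a shift of -2.41 (-2.20 with quantile normalization), and no ketogenic array came near a chow array (exact permutation p = 0.1, the smallest possible). The pair was chosen after the values were seen. Since Cyp2c29 was lower and Cyp2c38 higher without overlap, their difference had to separate the diets. This p was thus fixed by the choice and adds no support. The bases just before each gene's outermost annotated start are shown from RefSeq, build GRCm38.p6, because these neighbours moved apart: chr19:39286844-39287043 on the plus strand for Cyp2c29 and chr19:39463104-39463303 on the minus strand for Cyp2c38. Capitals mark AGGTCA, the half-site of nuclear receptors, and the TATA box TATAAA, on either strand.
Cyp2c29: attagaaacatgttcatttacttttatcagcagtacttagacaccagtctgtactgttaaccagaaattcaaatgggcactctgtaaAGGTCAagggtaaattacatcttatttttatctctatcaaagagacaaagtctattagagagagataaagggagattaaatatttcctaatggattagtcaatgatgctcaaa
Cyp2c38: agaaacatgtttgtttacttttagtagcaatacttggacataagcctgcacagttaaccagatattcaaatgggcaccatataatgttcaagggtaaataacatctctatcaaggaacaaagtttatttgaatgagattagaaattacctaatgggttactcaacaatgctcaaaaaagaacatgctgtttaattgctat
The Cyp2c29 stretch holds 1 AGGTCA, and the full window of Cyp2c38 holds none. TATAAA occurs in the full windows of both genes, in bases that lie past the outermost start and are not shown.

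Promoter windows were found for 31 of the 39 members. A member was counted if any of its windows held a motif, while the comparison share is per window. The shares thus differ in unit, since a gene can have several windows. AGGTCA, on either strand within 250 bases before the start, occurred in 8 of these 31 members (25.8%) and in 14.0% of 32851 windows of all genes. TATAAA occurred in 17 of 31 members (54.8%) and in 12.4% of all windows. Of the 5 members that fell, Cyp2c29, Cyp2c70 and Cyp3a25 held AGGTCA, and Cyp2c29, Cyp2c55, Cyp2c70 and Cyp2d9 held TATAAA. TTCNNNGAA, the STAT5 motif, occurred in 1 of 31 members (3.23%) and 7.02% of all windows. GCGTG, the core of the AhR site, occurred in 5 members (16.1%) and 28.2% of all windows. Neither occurred in the 5 members that fell. AGTTCA, a variant of the nuclear receptor half-site, occurred in 3 members (9.68%) and 11.8% of all windows. GTTAAT, the HNF1 half-site, occurred in 2 members (6.45%) and 6.43% of all windows. CCAAT occurred in 12 members (38.7%) and 33.8% of all windows. Of the 5 members that fell, 0 held AGTTCA or GTTAAT, and Cyp2c55 and Cyp3a25 held CCAAT. A match describes the letters of the window and not a bound site. Stretches are shown for Cyp2c70 (chr19:40187287-40187486 on the minus strand) and Cyp3a25 (chr5:146009645-146009844 on the minus strand), which both fell and both hold AGGTCA, with the same capitals.
Cyp2c70: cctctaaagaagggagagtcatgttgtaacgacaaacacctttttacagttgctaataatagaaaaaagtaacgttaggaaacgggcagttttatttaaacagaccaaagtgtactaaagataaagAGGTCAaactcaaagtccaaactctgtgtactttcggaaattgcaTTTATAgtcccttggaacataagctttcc
Cyp3a25: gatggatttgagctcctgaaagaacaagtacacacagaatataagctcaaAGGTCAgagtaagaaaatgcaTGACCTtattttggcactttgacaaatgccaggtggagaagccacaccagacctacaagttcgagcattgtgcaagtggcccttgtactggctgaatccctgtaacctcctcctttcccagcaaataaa

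**Figure D2:**
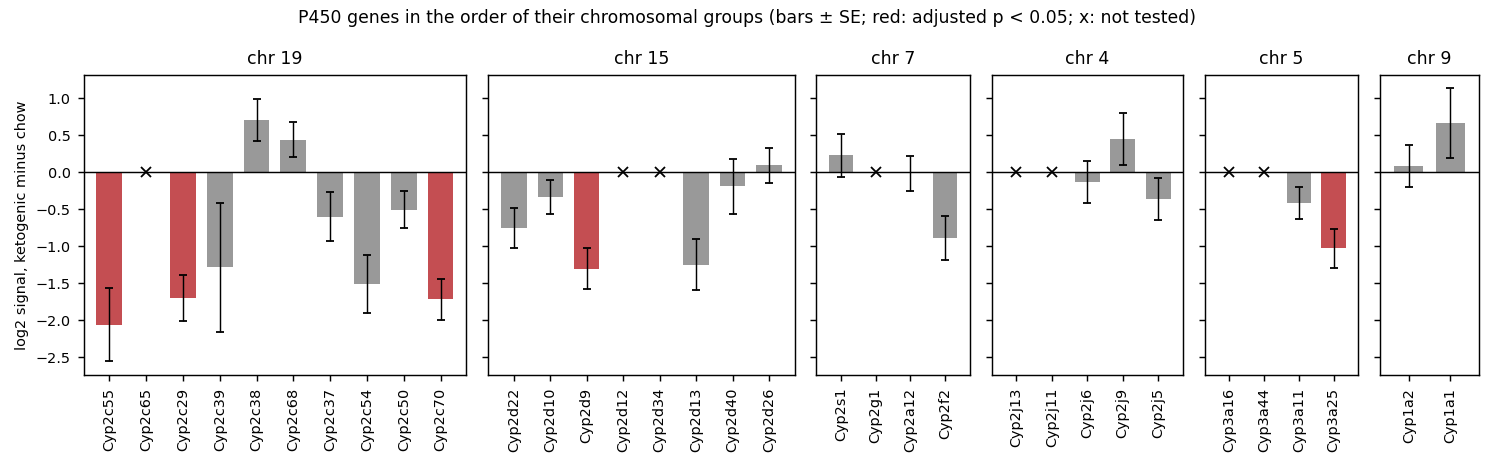
Log2 change (ketogenic minus chow, vertical axis; bars with SE) of the members in the order of their chromosomal groups, with genes below the filter as crosses. On chromosome 19 values run from -2.06 for Cyp2c55 to 0.71 for Cyp2c38, and red bars mark the 5 genes with adjusted p under 0.05.

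The Cyp2c group on chromosome 19 showed the widest range of the chromosomal groups of members, 2.77 on the log2 scale over 9 tested genes, from -2.06 to 0.71. This group also had the most tested genes, which by itself widens a range. Cyp2c38, at its upper end, was not past the threshold. In the Cyp2d group on chromosome 15 the range was 1.39 over 6 tested genes.

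Cyp2d genes oxidise steroids and many drugs, and the mouse carries several in a row. Of 8 members 6 were tested, and 1 fell. Cyp2d9, a testosterone hydroxylase with male-predominant expression, had 3981.8, 3975.6 and 3937.2 on chow and 2260.0, 1494.4 and 1229.1 on ketogenic arrays. The chow arrays lay very close together, and every ketogenic array lay far below them. The change was -1.30 ± 0.28 (log2, SE), or 2.47-fold lower, with adjusted p = 0.0235 in limma. Its only probe set ends in _a_at, so 1 alternative could not test it, and the call was kept under 13 of the other 19. It was lost without any 1 chow array or without ketogenic array 2 or 3 (adjusted p between 0.0532 and 0.0703).

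Cyp2d10, the neighbour whose 250 bases before the start are 82.8% identical to those of Cyp2d9, had 3551.4, 3720.3 and 3283.5 on chow and 3167.1, 2766.0 and 2460.4 on ketogenic arrays. Its ranges did not overlap, with a log2 change of -0.34 ± 0.23 (SE) and adjusted p = 0.414, in an interval of -0.85 to 0.18. The difference between the log2 signals of Cyp2d9 and Cyp2d10 was 0.17, 0.10 and 0.26 on chow and -0.49, -0.89 and -1.0 on ketogenic arrays (exact permutation p = 0.1). Probes of such close relatives can share signal, which was not analysed here. Stretches before the outermost start are shown for comparison: chr15:82452177-82452376 on the plus strand for Cyp2d9 and chr15:82407254-82407444 on the minus strand for Cyp2d10.
Cyp2d9: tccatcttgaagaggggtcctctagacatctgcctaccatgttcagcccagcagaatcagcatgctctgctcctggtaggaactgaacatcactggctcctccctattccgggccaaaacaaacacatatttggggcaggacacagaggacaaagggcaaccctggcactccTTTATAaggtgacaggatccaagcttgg
Cyp2d10: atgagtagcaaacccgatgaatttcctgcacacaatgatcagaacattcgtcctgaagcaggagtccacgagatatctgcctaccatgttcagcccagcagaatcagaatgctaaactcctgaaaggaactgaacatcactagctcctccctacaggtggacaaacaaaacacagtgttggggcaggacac
The Cyp2d9 stretch holds a TATAAA on the opposite strand. The full window of Cyp2d10 holds TATAAA too, in the bases past its outermost start that are not shown.

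Cyp2d13, a transcribed pseudogene in RefSeq, had 159.5, 87.0 and 104.1 on chow and 59.6, 59.2 and 30.5 on ketogenic arrays, a log2 change of -1.25 with adjusted p = 0.0662, past the threshold under 6 of 20 alternatives. Its ranges did not overlap, but its second probe set had a change of -0.45 and overlapping ranges. Cyp2d26 had 3114.0, 2899.1 and 2714.7 on chow and 3279.5, 3533.1 and 2560.1 on ketogenic arrays, with ketogenic array 3 as the lowest and the other ketogenic arrays as the highest. Its change was 0.09, in an interval of -0.44 to 0.63, which includes changes in either direction. Cyp2d22 had a change of -0.75 and Cyp2d40 of -0.19, neither past the threshold. A further probe set of Cyp2d22 changed by -0.90, with ranges that did not overlap.

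Cyp3a enzymes oxidise a broad range of drugs and steroids. Of 5 members 3 were tested and 1 fell. Cyp3a25, which is expressed in liver and intestine, had 2974.1, 2613.2 and 2364.2 on chow and 1328.0, 1623.9 and 1001.1 on ketogenic arrays. All ketogenic arrays lay below all chow arrays. The change was -1.03 ± 0.26 (log2, SE), with adjusted p = 0.0477 in limma, the call closest to the threshold. It held under 8 of 20 alternatives. Leaving out any 1 array ended the call, at adjusted p from 0.0538 to 0.127, as did scaling to the hybridization controls, at 0.0587.

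Cyp3a11, the main liver Cyp3a enzyme and a target of PXR, had 6771.0, 6159.8 and 6174.6 on chow and 4810.3, 4826.2 and 4723.2 on ketogenic arrays. The groups lay apart, yet the change was small, -0.41 ± 0.22 (log2, SE), with adjusted p = 0.294. Between Cyp3a25 and Cyp3a11 the difference of log2 signals was -1.19, -1.24 and -1.38 on chow and -1.86, -1.57 and -2.24 on ketogenic arrays (exact permutation p = 0.1). These 3 pairs of members were chosen after the values were seen, each with 1 of the members that fell. The adjusted p over them was 0.1 for each, the smallest possible, and does not correct for this choice. The p-values of the 3 pairs thus add no support. Cyp3a13 had a log2 change of -0.69, with overlapping arrays.

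**Figure D3:**
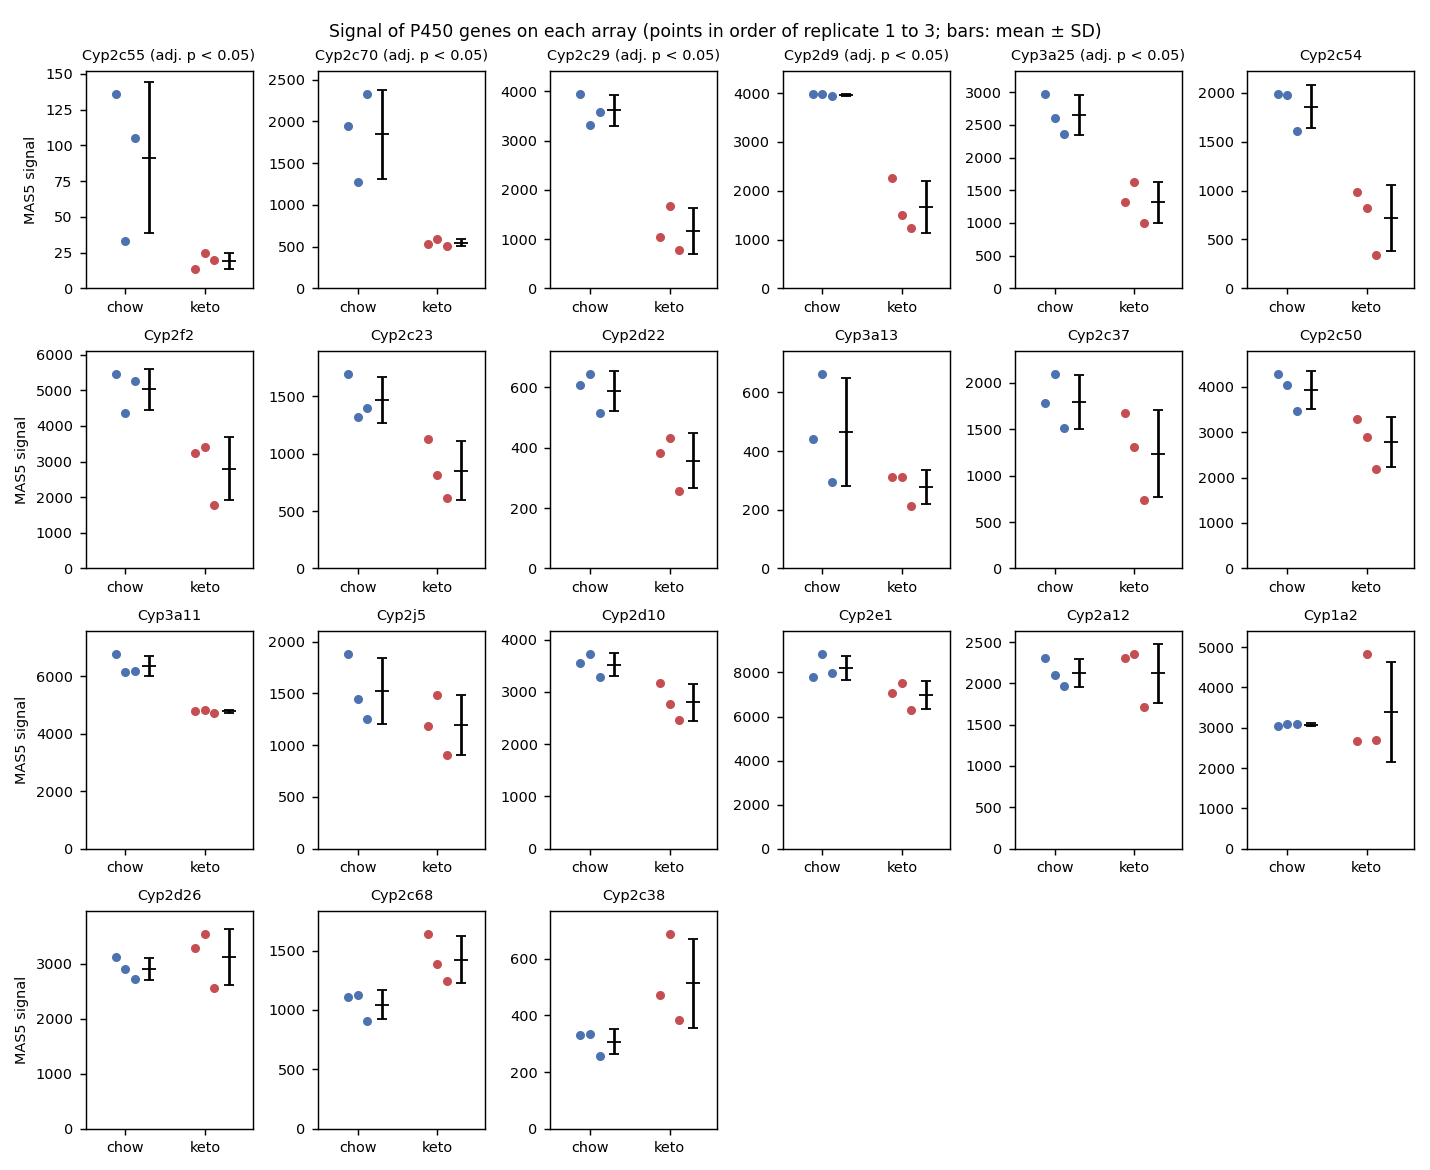
Signal (vertical axis, linear from 0) of 21 members on each chow and ketogenic array, with the mean and SD as a bar. The first 5 panels are the genes that fell, and Cyp3a11 and Cyp2d10 lie apart by diet with smaller changes while Cyp1a2 and Cyp2a12 overlap.

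Among the subfamilies of family 2 with 1 tested member here, none passed the threshold in limma. Genes of these subfamilies without a single-symbol probe set are not counted. Cyp2e1, which oxidises ethanol and acetone, had 7809.6, 8827.4 and 7973.4 on chow and 7057.2, 7536.8 and 6282.5 on ketogenic arrays. All ketogenic arrays lay below the chow arrays, and the change was -0.24 ± 0.22 (log2, SE) in an interval of -0.74 to 0.27, with adjusted p = 0.556. Scaled to the hybridization controls it was 0.12. Cyp2f2, known for naphthalene oxidation and for expression around the portal vein, had 5456.8, 4368.2 and 5268.1 on chow and 3234.5, 3398.2 and 1785.7 on ketogenic arrays. Its ranges did not overlap, with a change of -0.89 ± 0.30 (log2, SE) and adjusted p = 0.114, and it passed under 4 of 19 alternatives.

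Cyp2r1, the microsomal vitamin D hydroxylase, had 109.1, 79.4 and 82.4 on chow and 48.7, 62.6 and 34.3 on ketogenic arrays, with a change of -0.92 ± 0.29 (log2, SE) and adjusted p = 0.0928. Cyp2u1, a fatty acid hydroxylase, had 70.9, 39.3 and 49.4 on chow and 25.3, 14.7 and 2.6 on ketogenic arrays. Both genes had ranges that did not overlap. The change of Cyp2u1 was -2.38 ± 0.72 (log2, SE; adjusted p = 0.0815), and its SE was the second largest among the tested members, after that of Cyp2c39. Its ketogenic array 3 lay under the background, and Cyp2u1 passed the filter only through its chow arrays. With the floor at the background the change of Cyp2u1 was -1.70 (adjusted p = 0.00217 in limma), and on log2(signal + 16) it was -1.245. Cyp2u1 passed under 4 of 20 alternatives and Cyp2r1 under 6 of 20. The other probe set of Cyp2u1 had a change of -0.86 with ranges that did not overlap. Cyp2a12 had 2308.5, 2105.9 and 1972.3 on chow and 2309.3, 2352.3 and 1713.9 on ketogenic arrays, so the diets overlapped, with a change of -0.01 in an interval of -0.56 to 0.53. Cyp2s1 had signals of 13.2 to 23.0 on all arrays and a change of 0.23.

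Cyp2j enzymes are epoxygenases, and of 5 members 3 were tested and none passed. Cyp2j5, abundant in liver and kidney, had 1879.0, 1442.2 and 1254.6 on chow and 1188.6, 1486.9 and 902.9 on ketogenic arrays, with a change of -0.36 and adjusted p = 0.472. Its ranges overlapped through ketogenic array 2. Its other probe set, by contrast, had a change of -0.72 with ranges that did not overlap. Cyp2j6 had 75.1, 82.3 and 46.3 on chow and 70.3, 61.0 and 50.7 on ketogenic arrays, a change of -0.13 with overlapping ranges. Its other probe set had -0.65. Cyp2j9 had a change of 0.45 at signals of 11.2 to 28.5.

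Family 1 held 3 members, and none passed the threshold in limma. Cyp1a2, an abundant liver enzyme that oxidises caffeine and aromatic amines, had 3044.7, 3082.8 and 3101.4 on chow and 2667.3, 4822.5 and 2696.9 on ketogenic arrays. The chow arrays lay between the ketogenic arrays, of which array 2 stood high. The change was 0.08 ± 0.29 (log2, SE) in an interval of -0.56 to 0.73, and -0.20 without ketogenic array 2. Cyp1a1, the AhR target that is low in liver without an inducer, had 11.3, 25.5 and 19.2 on chow and 42.8, 38.1 and 13.4 on ketogenic arrays, with a change of 0.66 ± 0.48 (log2, SE). Cyp1b1, largely a gene of cells other than hepatocytes, had 16.8, 23.7 and 22.1 on chow and 23.7, 28.7 and 29.8 on ketogenic arrays. Its ketogenic arrays lay at or above the highest chow array, with a change of 0.40 ± 0.25 and adjusted p = 0.366, and it passed when scaled to the hybridization controls (0.0403). Of 4 tested AhR targets outside the members 0 passed in limma, and 2 were higher at an unadjusted p under 0.05. Without chow array 1, 1 of them rose, and scaled to the hybridization controls 4 did.

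Signals of the 8 members under the filter ranged from 0.1 to 18.5 over all arrays. They were Cyp2c65, Cyp2d12, Cyp2d34, Cyp2g1, Cyp2j11, Cyp2j13, Cyp3a16 and Cyp3a44, and 4 members were under the background on every array. They were not tested. A further 2 probe sets carry several symbols of these families and were left out.

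**Figure D4:**
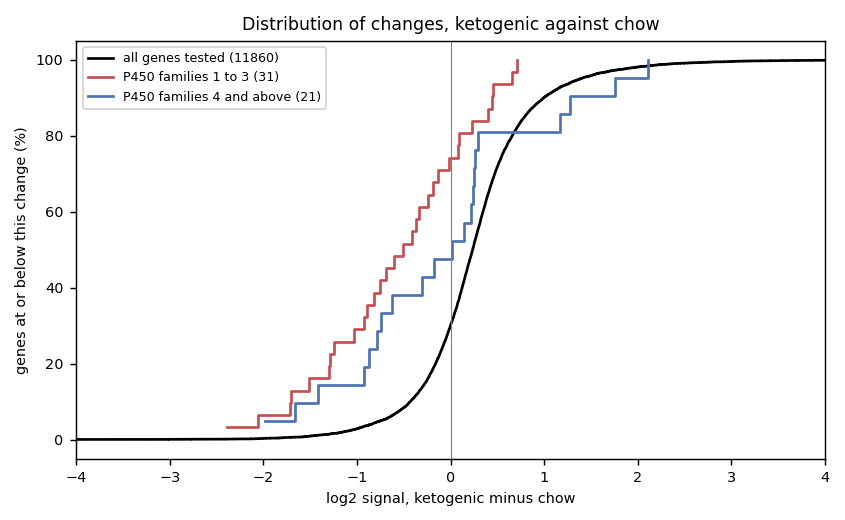
Cumulative share of genes (vertical axis, percent) at or below a given log2 change (horizontal axis) for all 11860 genes tested, the 31 P450 genes of families 1 to 3 and 21 P450 genes of families 4 and above. The curve of families 1 to 3 lies to the left, and the medians are -0.508 for these, 0.237 for all genes and 0.0184 for the higher families.

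Redox partners pass electrons to the P450 enzymes, and heme is their cofactor. Of 12 tested redox partners and genes of heme turnover, 3 rose and 0 fell (0 lower at an unadjusted p under 0.05). Hmox1, which breaks down heme, rose by 2.05 on the log2 scale, from 26.3, 33.0 and 38.2 on chow to 119.1, 148.1 and 134.5 on ketogenic arrays (adjusted p = 0.00267). Blvrb, a biliverdin reductase, rose by 1.05 and the cytochrome b5 reductase gene Cyb5r1 by 1.205. The number of rises in this list was 1 without chow array 2 or without ketogenic array 1 or 2, and 5 with hepatocyte marker scaling. Of 22 tested receptors and factors 1 rose, the factor Cebpd, by 1.099 (adjusted p = 0.026), and 0 fell (0 lower at an unadjusted p under 0.05). No receptor or factor was called without any 1 array except ketogenic array 3, and 4 rose when scaled to the hybridization controls. The receptors CAR (Nr1i3) and PXR (Nr1i2) had log2 changes of -0.24 and 0.23, Ahr 0.47 and the hepatocyte factor Hnf4a -0.00, none past the threshold.

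Sex-biased liver genes outside the members moved in both directions. Of 11 tested male-biased genes 7 fell and 0 rose, with a median of -1.66, and 11 of 11 had a negative change. Elovl3, a fatty acid elongase, fell by 1.73. The organic anion transporter gene Slco1a1 fell by 2.07. The others were Hsd3b5, Cyp7b1, Susd4, Ugt2b38 and C6, and 3 of the falls were called without a filter. Hsd3b5 passed the filter only through its chow arrays. Of 6 tested female-biased genes 2 rose, both of them Cyp2b genes, with a median of 1.28 over the 6. The change was positive for 5 and negative for Cyp17a1 (-1.98, adjusted p = 0.266 in limma, with overlapping arrays). Cyp2b9 rose from 17.4, 14.7 and 5.4 on chow, around the background, to 561.5, 852.4 and 419.7 on ketogenic arrays. Cyp2b13 rose at least 6-fold against the background level, with all chow arrays under it, and passed the filter only through its ketogenic arrays. Of 9 tested growth hormone axis genes 0 passed the test in limma, with 1 higher and 1 lower at an unadjusted p under 0.05. The growth hormone receptor gene Ghr had a change of -0.79 and adjusted p = 0.12. Socs2, an inhibitor of growth hormone signalling, had one of 1.015 and adjusted p = 0.083, and neither overlapped between diets. Scaled to the hybridization controls 2 genes of this axis rose, and with a common array median 1 fell. These lists were chosen with earlier results of these data known.

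By zone of the liver lobule, 6 of 18 tested periportal genes fell and 1 rose, with a median of -0.704. The falls were Hal, Etnppl, Cps1, Arg1, Slc7a2 and G6pc, enzymes and a transporter of amino acid and glucose metabolism, and the rise was Apoa4. Without chow array 1, 2 or 3 or ketogenic array 3, 3 periportal genes fell. Of 20 tested pericentral genes 0 fell and 2 rose, Gstm3 by 1.85 and Slc13a3 by 1.65, with a median of 0.369. Without a filter 0 pericentral genes rose, and scaled to the hybridization controls 7 did. With a common array median, quantile normalization or a common trimmed mean 2 fell, and 1 fell without chow array 3. P450 genes of families 4 and above were split, with 2 of 21 higher and 2 lower and a median of 0.0184. Cyp4f14 fell by 1.42, the oxysterol hydroxylase gene Cyp7b1 fell by 1.66, and Cyp39a1 rose by 2.11. Cyp4f16, which passed the filter only through its ketogenic arrays, rose from 4.8, 4.5 and 11 on chow to 26.9, 22.4 and 15.4. Its chow arrays lay near or under the background, so no fold is given. With a common array median, quantile normalization or a common trimmed mean, 4 of these fell and 0 rose. No rise was called without chow array 1 or ketogenic array 1 or 2, 1 was called without chow array 3 or ketogenic array 3, and 1 fall was called without ketogenic array 3.

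**Figure D5:**
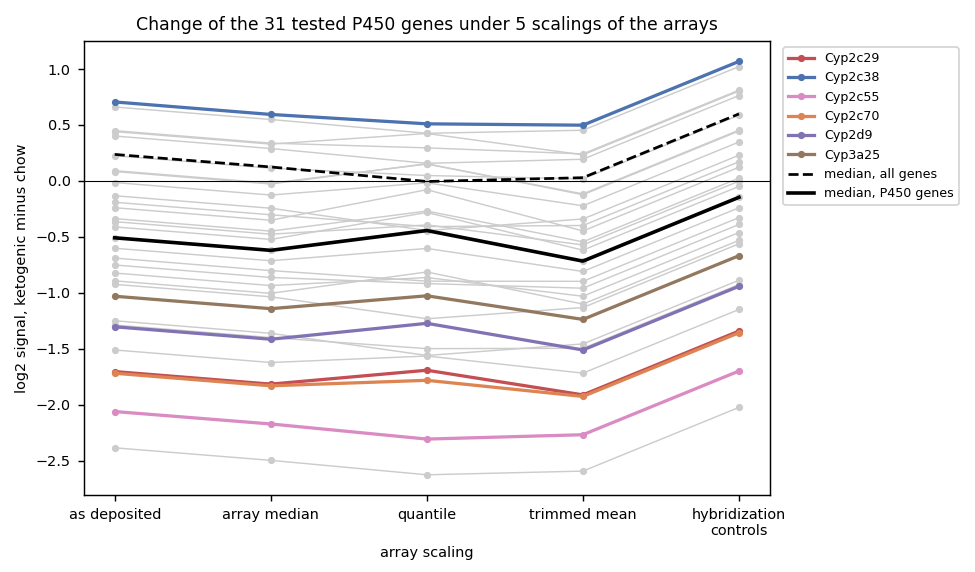
Log2 change (vertical axis) of the 31 tested P450 genes as deposited and under 4 other scalings of the arrays (horizontal axis), with the medians of members and of all genes. Lines shift in parallel under whole-array scalings, but with quantile normalization 10 members move up and 21 down; the median of the members minus that of all genes is -0.745 in each scaling except quantile normalization, where it is -0.438.

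The median of the tested members minus that of all genes was -0.745 as deposited and with the common array median, the common trimmed mean and the hybridization controls, which is fixed by rescaling whole arrays and is no sign of stability. With quantile normalization, which also changes the shape of the distribution, this difference was -0.438, while the median of the members itself was -0.443. Of the 17 tested members with a mean signal of at least 1000, 4 fell, and of the 11 under 100, 1 fell. The share of all genes that fell at these signals was not computed. These counts thus cannot be set against genes of like brightness.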

How the data were processed

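Total RNA of liver was measured on 6 1-colour Affymetrix arrays, 3 per diet. Each deposited value is the intensity of a probe set on a linear scale, for which the submitters' processing notes name GCOS and MAS5. Their scaling target: not given in the sources used here. Array numbers follow the order of deposition and imply no pairing.

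Signals were raised to 1.1 (10th percentile of the table) and log2-transformed. Of 45101 probe sets, 64 are controls, and 34945 have 1 symbol, 932 several and 9160 none in the platform annotation. Each of 18193 genes was represented by the probe set with the highest mean signal. The 11860 genes with a mean log2 signal of at least 3.35, the median over probe sets, were tested two-sided with limma 3.58.1 (lmFit, eBayes) under R 4.3.3 ( Benjamini-Hochberg over all genes tested, threshold 0.05). Values are ketogenic minus chow with the moderated SE (n = 3 per diet). Background was taken from 27 bacterial control probe sets, at their 95th percentile. Precision is limited by the number of arrays, which carry no read depth.

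Tested on simulated data (20 draws over 11860 genes, 200 of them changed in each draw), the procedure made 5.53% false calls. Alternatives covered scaling, floor, filter, probe set choice, variance prior and each array left out. Named with values on every array were members past the threshold, up to 2 members of highest mean signal per subfamily, and members of at least 2-fold change without overlap, beside those said to be chosen after their values were seen. Promoter windows are RefSeq's of build GRCm38.p6. The members and lists were chosen with earlier results of these data known. Listed genes without a single-symbol probe set, among them the P450 reductase, are not analysed here.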

Additional observations from a re-analysis of the deposited data

How the results depend on the processing

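No paired analysis was possible because the labels give no replicate numbers. The main analysis had 5 members lower, 0 higher and a median log2 change of -0.508. The number of members lower was 11 with a common array median, 8 with quantile normalization and 11 with a common trimmed mean. It was 9 with the floor at the background, 12 on log2(signal + 16) and 11 with a trended robust prior. It was 3 of 33 with the filter at the background in 1 diet and 3 with all probe sets fitted together. Without probe sets ending in _x_at, _s_at or _a_at it was 3 of 27, and Cyp2d9 was not among those tested. It was 0 of 39 in limma without a filter (13 at an unadjusted p under 0.05), and 2 to 5 when 1 array was left out. The number of members higher was 3 with hybridization control scaling, 3 with hepatocyte marker scaling, which was added after the data were seen, and 1 on log2(signal + 16). The median became -0.146 and -0.136 under those 2 scalings, and ranged from -0.636 to -0.269 when 1 array was left out. The cause of these differences was not tested.

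Among members with small changes the sign turned. Under a common array median Cyp1a2 had -0.027 and Cyp2d26 -0.0198, and under a common trimmed mean -0.123 and -0.116. With hybridization control scaling the changes of Cyp2a12, Cyp2d10, Cyp2e1 and Cyp2j6 were 0.348, 0.0255, 0.123 and 0.23, and with hepatocyte marker scaling 0.358, 0.036, 0.133 and 0.24, with 0.0087 for Cyp2j5. When 1 array was left out the change ranged from -0.198 to 0.229 for Cyp1a2, from -0.0036 to 0.229 for Cyp2d26, from -0.0947 to 0.134 for Cyp2a12 and from -0.387 to 0.0282 for Cyp2j6. None of the 5 members that fell changed sign under the alternatives run for it, 19 for Cyp2d9 and 20 for each of the others. With 4 residual and 4.93 prior degrees of freedom in limma, moderate changes could be missed, and signals near the background of 10.8 carry no firm fold.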
